A study of Mus musculus with 16 samples.

Results

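Control cells at 24 and 48 h of a silencing time course made up 5 of the 16 samples of this microarray series. They were chosen by their labels alone, as the 2 samples labelled scrambled at 24 h (numbered 2 and 3) and the 3 samples labelled scrambled at 48 h (numbered 4, 5 and 6). All were TUBO cells, a line cloned from a mammary carcinoma of BALB-neuT mice, in which the mouse mammary tumour virus promoter drives an activated rat ErbB2 (neu) gene. Cells were plated close to confluence in medium with 20% serum and transfected a day later with Lipofectamine and the negative control hairpin inhibitor. The labelled times were taken as time after transfection. The other groups used below were TUBO cells given 200 nM of the inhibitor against miR-135b (labelled anti-miR-135b) and collected at 24 h (2 samples) and 72 h (3 samples), and the 3 control samples at 72 h, whose levels are quoted for 3 genes. The 3 samples given the anti-miR-135b inhibitor for 48 h entered the fit only. Every group carried the ErbB2 transgene, the lipid reagent and a hairpin. No untransfected or zero-time sample is analysed here, so time in culture, time after the lipid and time after the control hairpin cannot be told apart.

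Several gene programmes bear on cells at this stage. Proliferating cells express the enzymes of DNA copying in S phase, largely under E2F factors, and the spindle and segregation genes later, in G2 and mitosis, largely through a promoter element called the CHR (cell cycle genes homology region). The enzymes of cholesterol synthesis are induced together by SREBP2, a membrane-bound factor released when membrane sterol is low. NRF2, a factor held back by KEAP1, induces genes for glutathione, thioredoxin and cystine uptake when cells meet oxidants or electrophiles.

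The 5 arrays lay on 1 chip, in positions A to C at 48 h and G and H at 24 h, so position on the chip and time cannot be told apart. The median intensity over 25697 probes was 281.2 to 295.3 at 24 h and 288 to 300.7 at 48 h. The upper quartile was 376.5 to 424.1 at 24 h and 455.7 to 529.4 at 48 h, so the 48 h arrays were brighter among brighter probes, without overlap. The part of this difference in the results below was not tested, and quantile normalization gave all arrays the same distribution. Levels are normalized log2 intensities and changes are differences between them, so a change of 1 is a doubling. After normalization, arrays correlated at r of 0.92 to 0.97 within 48 h, at 0.951 within 24 h and at 0.913 to 0.953 between the times, across 12848 probes that are not independent. Of 12 mammary epithelial markers, 9 were above the intensity filter, among them Krt8 at 13.31 to 14.14 and Cdh1 at 11.34 to 11.92. Of 16 leukocyte markers, 2 were above it (Cd14, at 13.05 to 15.11, and Ms4a1, at 6.7 to 7.74), and Ptprc, which defines leukocytes, was not. The counts were 3 of 15 for fibroblasts and endothelium and 3 of 10 for adipocytes, all 6 at levels of 6.57 to 7.68, near the filter value of 7.1.

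From 24 to 48 h in the control cells, 9 of 21 measured spindle and mitosis genes and 4 of 27 DNA replication and S phase genes rose and none of either list fell. Of 18 measured cholesterol synthesis and uptake genes 9 fell, as did 5 of 18 NRF2-linked antioxidant genes and 2 of 18 glutathione transferases, and none of these lists had a gene that rose. Over all 9032 genes tested, 0.631% were called higher and 0.421% lower. Of 12848 probes tested, 123 (0.957%) passed limma's test at an adjusted p of 0.05, 67 of them higher at 48 h (0.521%) and 56 lower (0.436%). They stood for 106 gene symbols, 62 higher and 44 lower. Their fold changes ran from 1.78 to 9.36, with a median of 2.42, while the median log2 change of all probes was 0.022. All 123 had arrays that did not overlap between the times, against 28.8% of all probes tested. At an unadjusted p under 0.05 there were 1594 probes, 912 higher and 682 lower. Without 1 array the count fell to 17 (24 h sample 3), 23 (24 h sample 2), 37 (48 h sample 5) or 76 (48 h sample 6), and with the other groups left out of the fit it fell to 10. Scaling the arrays by their medians gave 1243 higher and 24 lower probes with all probes shifted up by 0.319, and the authors' deposited values gave 75 higher and 95 lower.

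**Figure D1:**
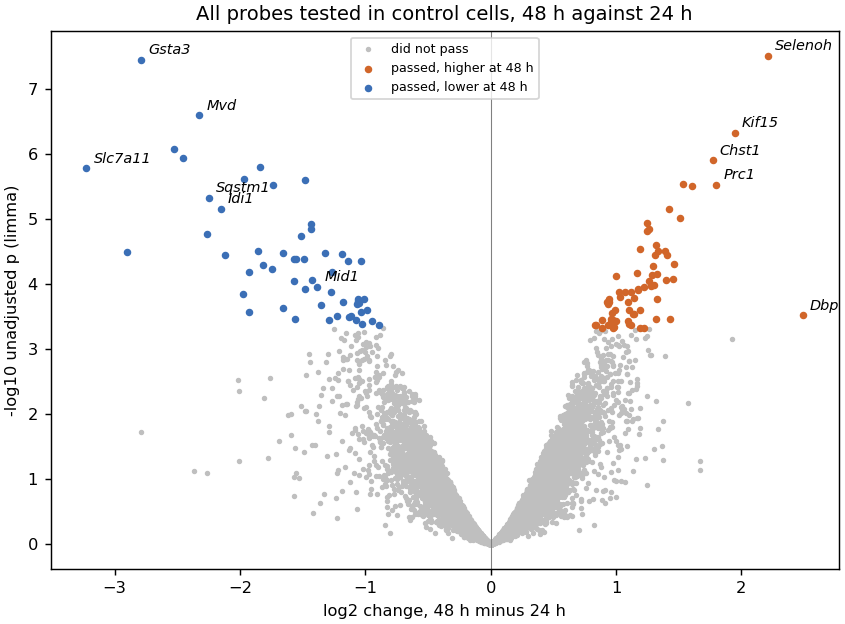
Log2 change from 24 to 48 h in control cells (horizontal) against the negative log10 of limma's unadjusted p (vertical) for each of 12848 probes, with 2 arrays at 24 h and 3 at 48 h. Grey points did not pass, 67 orange points passed higher at 48 h and 56 blue points passed lower. Selenoh and Gsta3 have the smallest p, and Slc7a11 and Dbp are the outermost named points.

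The genes with the largest increases were Dbp, Selenoh and a group of motor and spindle genes. Arrays that do not overlap between the times were a condition for naming the 12 largest changes in each direction. Dbp, a transcription factor whose mRNA cycles under the circadian clock, read 8.88 and 8.78 at 24 h and 11.76, 11.55 and 10.65 at 48 h, a log2 change of 2.49 ± 0.56 (SE; limma adjusted p = 0.0403). Selenoh, a nucleolar selenoprotein, read 9.84 and 9.79 at 24 h and 11.98, 12.15 and 11.96 at 48 h, a change of 2.21 ± 0.24 (adjusted p = 0.000232). Both genes were higher on every 48 h array, and the 48 h values of Selenoh lay close together while those of Dbp spread over more than 1 log2 unit. Chst1, a sulfotransferase of keratan sulfate, read 7.96 and 7.84 at 24 h and 10.09, 9.6 and 9.32 at 48 h, a change of 1.77 ± 0.25 (adjusted p = 0.00232). Cirbp, the cold-inducible RNA-binding protein, read 7.42 and 7.61 at 24 h and 9.09, 9.04 and 8.71 at 48 h, a change of 1.43 ± 0.23 (adjusted p = 0.00507). The other 8 of the 12 largest increases were cell cycle genes.

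Among those 8, Kif15, a kinesin that helps to keep the spindle bipolar, read 7.58 and 7.49 at 24 h and 9.15, 9.64 and 9.66 at 48 h, a change of 1.95 ± 0.25 (limma adjusted p = 0.00154). Prc1, which crosslinks microtubules at the midzone for cytokinesis, read 10.54 and 11.51 at 24 h and 13.03, 12.92 and 12.51 at 48 h, a change of 1.80 ± 0.27 (adjusted p = 0.00265). Kif22, a kinesin that binds chromosome arms, read 9.06 and 9.44 at 24 h and 10.5, 10.88 and 10.9 at 48 h, a change of 1.51 ± 0.25 (adjusted p = 0.00648). By the rule of choice the groups did not overlap for any of them, and the lowest 48 h value of Prc1 was on sample 6. Rrm2, the regulated subunit of ribonucleotide reductase, which makes deoxynucleotides, rose by 1.54 ± 0.23 (adjusted p = 0.00265), and both of its probes passed. Haus8, of the augmin complex, rose by 1.46 ± 0.27 and Kif2c, a microtubule-depolymerizing kinesin at the centromere, by 1.46 ± 0.29. Cenpa, the centromeric histone H3 variant, rose by 1.43 ± 0.32 and Ska3, which ties kinetochores to microtubules, by 1.41 ± 0.26. Kif2c and Ska3 averaged below the filter value at 24 h, so they passed the filter through their higher groups, as did 8 of the 67 higher probes.

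The weakest of these 12 calls was that of Cenpa (adjusted p = 0.0432), which was lost without any 1 of the 5 arrays (adjusted p up to 0.31). Dbp was lost without 24 h sample 2 or 3 or 48 h sample 4 or 5 (adjusted p of 0.0862 to 0.23), and Kif2c without any 1 array other than 48 h sample 4 (0.0648 to 0.179). Without 24 h sample 2, Prc1 (0.0766), Kif22 (0.105), Cirbp (0.0766) and Ska3 (0.057) also missed the threshold. Without 24 h sample 3, Rrm2 (0.0635), Haus8 (0.235), Cirbp (0.051) and Ska3 (0.176) did, and without 48 h sample 5, Ska3 (0.058).

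**Figure D2:**
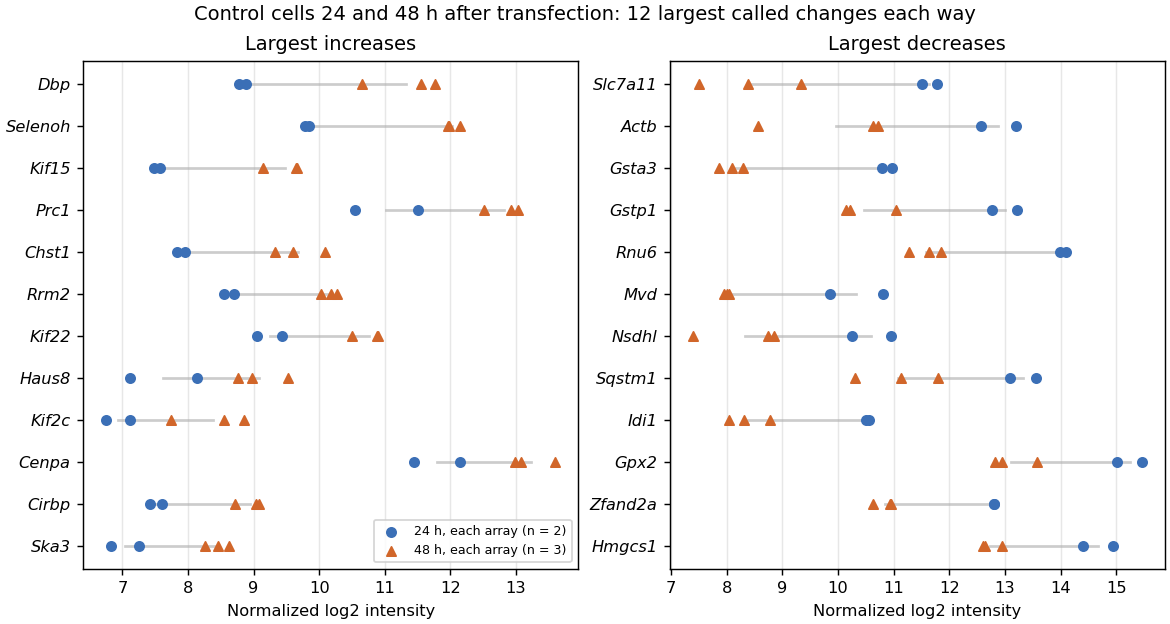
Normalized log2 intensity on each array for the 12 largest increases (left) and the 12 largest decreases (right) among probes that passed. Blue circles are the 2 arrays at 24 h, orange triangles the 3 arrays at 48 h, and grey lines join the group means. Circles and triangles do not overlap in any of the 24 rows because this was a condition for choosing the genes.

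Spindle and mitosis genes had the highest median change of the 41 lists. Of 35 listed spindle and mitosis genes, 21 were above the filter, 9 of these rose, none fell and 12 did not pass, against 0.631% of 9032 genes called higher and 0.421% called lower. All 21 changes were positive, with a median of 1.09 and a range of 0.50 to 1.80, against a median of 0.025 and 52.9% positive over all genes. For 16 of the 21 every 48 h array was above both 24 h arrays, against 16.6% of all genes. Beside Prc1, the members with the smallest p were Bub1b, Incenp, Birc5 and Kif2c. Bub1b, a kinase-like protein of the spindle checkpoint, read 7.33 and 6.85 at 24 h and 8.22, 8.47 and 8.33 at 48 h (change 1.24 ± 0.21, adjusted p = 0.00824). Incenp and Birc5 (survivin) are subunits of the chromosomal passenger complex, which corrects faulty attachments of chromosomes to the spindle. Incenp read 8.88 and 8.62 at 24 h and 10.12, 10.03 and 10.06 at 48 h (change 1.32 ± 0.23, adjusted p = 0.0122). Birc5 read 9.61 and 9.49 at 24 h and 11.28, 10.86 and 10.69 at 48 h (change 1.39 ± 0.25, adjusted p = 0.0122), and all 3 of its probes were higher. The other calls of the list were Cenpa, Anln (anillin, of the cleavage furrow, 1.31 ± 0.26), Kif11 (the spindle-pole motor, 1.10 ± 0.25) and Plk1 (a mitotic kinase, 1.12 ± 0.26). The last 3 are named because they complete the list's calls, after their values were seen.

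The 12 members that did not pass included Cdk1, the mitotic kinase itself, at 11.77 and 10.76 at 24 h and 12.49, 12.68 and 11.7 at 48 h (change 1.02 ± 0.45, limma adjusted p = 0.35). Its 24 h sample 2 and 48 h sample 6 overlap. Of the 9 calls, 1 remained without 24 h sample 2 (Bub1b) and 1 without 24 h sample 3 (Prc1), with adjusted p of 0.0633 to 0.31 for those lost. Without 48 h sample 5, 4 remained, and with only the 8 arrays of the first chip, 3.

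The DNA replication and S phase list had fewer calls. Of 34 listed genes, 27 were above the filter, 4 rose, none fell and 23 did not pass, against 0.631% of all genes called higher. Positive changes were found for 26 of 27, with a median of 0.82 and a range of -0.42 (Ccne2, cyclin E2) to 1.54 (Rrm2). For 17 of the 27 every 48 h array was above both 24 h arrays, against 16.6% of all genes. The 4 were Rrm2, Pold1 (the catalytic subunit of DNA polymerase delta), Cdc45 (part of the replicative helicase) and Clspn (claspin, a fork checkpoint adaptor). Pold1 read 9.38 and 9.62 at 24 h and 10.46, 11.07 and 10.94 at 48 h (change 1.33 ± 0.28, adjusted p = 0.0289). Clspn read 7.96 and 7.88 at 24 h and 9.01, 9.21 and 9.13 at 48 h (change 1.19 ± 0.26, adjusted p = 0.0364). Cdc45 read 7.8 and 8.39 at 24 h and 9.09, 9.04 and 9.13 at 48 h (change 0.99 ± 0.22, adjusted p = 0.0364). The 3 genes were higher on every 48 h array, and the narrowest gap was that of Cdc45. Mcm5, of the replicative helicase, had a change of 1.16 ± 0.28 and missed the threshold (adjusted p = 0.0616). Pcna, the sliding clamp, read 9.59 and 9.45 at 24 h and 10.18, 9.7 and 9.53 at 48 h (change 0.29 ± 0.34, adjusted p = 0.794), with groups that overlap. Without 24 h sample 3 none of the 4 calls remained, and without 24 h sample 2, 48 h sample 5 or 48 h sample 6 only Rrm2 did. Further DNA replication and repair genes outside the list rose too and are named after their values were seen: Mcm10 (1.22 ± 0.25), Rfc2 (1.29 ± 0.24), Pclaf (1.19 ± 0.21), Timeless (1.18 ± 0.24), Esco2 (1.40 ± 0.28), Blm (0.94 ± 0.20) and Dnmt1 (0.89 ± 0.21). All of these 7 missed the threshold without 24 h sample 2 (0.115 to 0.288) and without 24 h sample 3 (0.0544 to 0.137), as they did without 48 h sample 5 (0.0527 to 0.155).

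Promoters of 2 mitotic genes that rose are shown because they carry the CHR letters just before the gene start. Each line gives the 250 bases before the start on the plus strand, 5′ to 3′, from RefSeq (GRCm38.p6), with a CHR (TTTGAA, or TTCAAA when it lies on the other strand) and a CCAAT box (CCAAT, or ATTGG) in capitals. Prc1 lies at chr7:80294226-80294475 and Kif11 at chr19:37376132-37376381, chosen for their matches. The Prc1 window is 1 of 2 given for the gene.
Prc1: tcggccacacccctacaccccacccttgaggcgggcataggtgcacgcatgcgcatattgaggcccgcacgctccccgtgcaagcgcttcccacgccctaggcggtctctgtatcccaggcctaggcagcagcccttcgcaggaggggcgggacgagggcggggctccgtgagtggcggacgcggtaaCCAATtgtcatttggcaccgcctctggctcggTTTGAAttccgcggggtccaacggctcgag
Kif11: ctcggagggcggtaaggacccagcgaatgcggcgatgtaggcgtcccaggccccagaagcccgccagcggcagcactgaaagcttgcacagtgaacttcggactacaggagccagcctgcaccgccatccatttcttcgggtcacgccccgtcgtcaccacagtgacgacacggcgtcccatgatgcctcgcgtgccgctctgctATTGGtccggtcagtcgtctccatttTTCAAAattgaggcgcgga
In Prc1 the CHR letters begin at base -30 and the CCAAT letters at -62 from the start. In Kif11 they begin at -19 and -45, both on the other strand. A window of 250 bases before to 50 after the start was found for 17 of the 21 mitotic genes measured, and 15 of the 17 (88.2%) held TTTGAA on either strand. This compares with 15.0% of 7378 tested genes with a window, 17.9% of all 32851 windows, and 12.5% (3 of 24) of the S phase genes. The second CHR form, TTCGAA, was in 11.8% of the mitotic and 2.83% of the tested genes. The E2F letters TTTGGCGC were in 16.7% of the S phase genes and in 1.02% of the tested genes, and in none of the 17 mitotic genes. A second E2F form, TTTCCCGC, was in 16.7% of the S phase and 2.17% of the tested genes. These matches describe letters in windows, with no test.

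The cholesterol synthesis and uptake list had the most calls of any list among the decreases. Of 25 listed genes, 18 were above the filter, 9 fell, none rose and 9 did not pass, against 0.421% of all genes called lower. All 18 changes were negative, with a median of -1.21 and a range of -2.33 to -0.06, against a median of 0.025 over all genes. For 15 of the 18 every 48 h array was below both 24 h arrays, against 12.7% of all genes. The calls run along the pathway. At its start, Hmgcs1, which makes the precursor of mevalonate, read 14.93 and 14.39 at 24 h and 12.64, 12.6 and 12.94 at 48 h (change -1.93 ± 0.37, limma adjusted p = 0.0173). Mvd, which decarboxylates mevalonate pyrophosphate, read 10.8 and 9.85 at 24 h and 8.05, 7.95 and 8.01 at 48 h (change -2.33 ± 0.29, adjusted p = 0.0011). Idi1, the isomerase that follows, read 10.55 and 10.51 at 24 h and 8.04, 8.32 and 8.78 at 48 h (change -2.15 ± 0.34, adjusted p = 0.00507). For these 3 early enzymes the 48 h arrays were all lower than the 24 h arrays by more than 1 log2 unit.

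Calls were also found at the later, sterol-forming steps. Nsdhl, of the removal of the C4 methyl groups, read 10.95 and 10.25 at 24 h and 8.85, 8.75 and 7.39 at 48 h (change -2.27 ± 0.39, limma adjusted p = 0.00889). All 4 of its probes were lower, and its lowest value was on 48 h sample 6. Hsd17b7, of the same step, read 10.59 and 10.99 at 24 h and 9.2, 8.91 and 9.05 at 48 h (change -1.73 ± 0.26, adjusted p = 0.00265). Cyp51, the lanosterol demethylase, read 10.45 and 10.4 at 24 h and 9.01, 8.77 and 8.53 at 48 h (change -1.66 ± 0.30, adjusted p = 0.0122). The groups were apart for all of these. The remaining 3 calls, named after their values were seen, were Msmo1 (-1.65 ± 0.36), Lss, the lanosterol synthase (-1.29 ± 0.29), and Sqle, the squalene epoxidase (-1.13 ± 0.25). Aacs, which feeds acetoacetate into sterol synthesis and is outside the list, also fell (-1.81 ± 0.34, adjusted p = 0.0148), a call lost without 24 h sample 2 (0.0731) or 3 (0.19) or 48 h sample 5 (0.058).

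Not every sterol gene passed. Srebf2, which encodes SREBP2, read 9.8 and 10.08 at 24 h and 9.56, 9.7 and 9.71 at 48 h (change -0.28 ± 0.23, limma adjusted p = 0.675). Fdps, the farnesyl pyrophosphate synthase, read 12.89 and 13.34 at 24 h and 10.96, 11.78 and 12.56 at 48 h (change -1.35 ± 0.42, adjusted p = 0.159), with 48 h arrays that spread over more than 1 log2 unit. The fatty acid synthesis list had no call among its 14 measured genes, 4 positive and 10 negative, with a median of -0.14, which turned to 0.11 relative to all probes under median scaling. Of the 9 sterol calls, 2 remained without 24 h sample 2 (Mvd and Hsd17b7) and 2 without 24 h sample 3 (Mvd and Nsdhl), with adjusted p of 0.0698 to 0.26 for those lost. Without 48 h sample 5, 4 calls remained, and under median scaling 4, with a list median of -0.52.

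The promoter of Hmgcs1 is shown as the one measured cholesterol gene whose window holds the searched sterol response letters. It lies at chr13:119690101-119690350 (GRCm38.p6, plus strand, RefSeq), 250 bases before the start, 5′ to 3′, with TCACNCCAC and the CCAAT letters on either strand in capitals.
Hmgcs1: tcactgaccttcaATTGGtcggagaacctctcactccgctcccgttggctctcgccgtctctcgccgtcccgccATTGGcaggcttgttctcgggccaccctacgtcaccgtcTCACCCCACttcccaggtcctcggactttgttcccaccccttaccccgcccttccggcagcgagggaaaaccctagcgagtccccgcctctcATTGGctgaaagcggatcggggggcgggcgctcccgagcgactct
TCACCCCAC begins at base -137, and ATTGG, the CCAAT box on the other strand, at -237, -176 and -45. The CCAAT letters were in all 15 cholesterol genes with a window (100%), against 43.8% of the tested genes and 70.6% of the mitotic genes. TCACNCCAC was in 6.67% of the cholesterol genes and 1.27% of the tested genes.

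Calls among the antioxidant genes were fewer. Of 23 listed NRF2 genes, 18 were above the filter, 5 fell, none rose and 13 did not pass, against 0.421% of all genes called lower. All 18 changes were negative, with a median of -0.65 and a range of -3.23 to -0.01. In 14 of the 18 every 48 h array was below both 24 h arrays, against 12.7% of all genes. Slc7a11, the cystine importer that limits glutathione synthesis, had the largest decrease of all named genes. It read 11.5 and 11.78 at 24 h and 7.51, 8.39 and 9.34 at 48 h, a log2 change of -3.23 ± 0.46 (limma adjusted p = 0.0024), a fold of 9.36. Sqstm1, the autophagy receptor p62, which also binds KEAP1, read 13.56 and 13.09 at 24 h and 11.8, 11.13 and 10.3 at 48 h (change -2.25 ± 0.35, adjusted p = 0.00382). Both genes were lower on every 48 h array, and the 3 arrays at 48 h differed more among themselves than the 2 at 24 h. Txnrd1, the cytosolic thioredoxin reductase, read 9.84 and 10.26 at 24 h and 8.23, 8.74 and 8.88 at 48 h (change -1.43 ± 0.24, adjusted p = 0.00812). Srxn1, which repairs oxidized peroxiredoxins, read 9.54 and 10.06 at 24 h and 7.87, 8.28 and 8.71 at 48 h (change -1.51 ± 0.26, adjusted p = 0.00897), and both of its probes passed. Gclm, the modifier subunit of the first enzyme of glutathione synthesis, fell by 1.08 on the log2 scale (SE 0.24, adjusted p = 0.0432).

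Hmox1 and Nfe2l2, well-known members of the list, did not pass. Hmox1, heme oxygenase, read 8.27 and 9.65 at 24 h and 7.48, 7.37 and 7.66 at 48 h (change -1.45 ± 0.38, limma adjusted p = 0.0839). Nfe2l2, which encodes NRF2, read 8.18 and 8.22 at 24 h and 8.2, 7.59 and 7.27 at 48 h (change -0.51 ± 0.29, adjusted p = 0.497). Its 48 h sample 4 overlaps the 24 h arrays. Without 24 h sample 3, 1 of the 5 calls remained (Sqstm1, adjusted p of 0.0544 to 0.306 for the others), without 24 h sample 2 both Sqstm1 (0.0766) and Gclm (0.105) missed, and without 48 h sample 4 or 5 Gclm did (0.0835 and 0.156). Of the 5 calls, 2 remained with the first chip alone (Slc7a11 and Sqstm1) and 2 under median scaling (Slc7a11 and Srxn1), where 10 of the 18 changes were negative.

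Promoters of Gclm and Txnrd1 are shown because their letters before the start match the antioxidant response element searched, TGACNNNGC, in capitals here and on the other strand in both. Gclm lies at chr3:122245307-122245556 and Txnrd1 at chr10:82858956-82859205 (GRCm38.p6, plus strand, RefSeq, 250 bases before the start, 5′ to 3′).
Gclm: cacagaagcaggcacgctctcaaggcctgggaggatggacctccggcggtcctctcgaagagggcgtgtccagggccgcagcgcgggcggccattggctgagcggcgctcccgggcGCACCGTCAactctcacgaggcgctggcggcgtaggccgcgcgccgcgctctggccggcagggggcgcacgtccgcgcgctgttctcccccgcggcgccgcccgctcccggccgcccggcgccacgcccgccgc
Txnrd1: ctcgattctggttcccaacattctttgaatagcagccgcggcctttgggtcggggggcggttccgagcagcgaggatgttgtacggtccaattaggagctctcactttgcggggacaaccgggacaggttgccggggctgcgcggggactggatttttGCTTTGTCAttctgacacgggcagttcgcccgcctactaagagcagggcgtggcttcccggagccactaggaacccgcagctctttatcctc
The match begins at base -134 in Gclm and at -92 in Txnrd1, where the window is 1 of 3 that the table gives for the gene. TGACNNNGC was in 6 of 15 list members with a window (40.0%), against 16.5% of the tested genes.

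**Figure D3:**
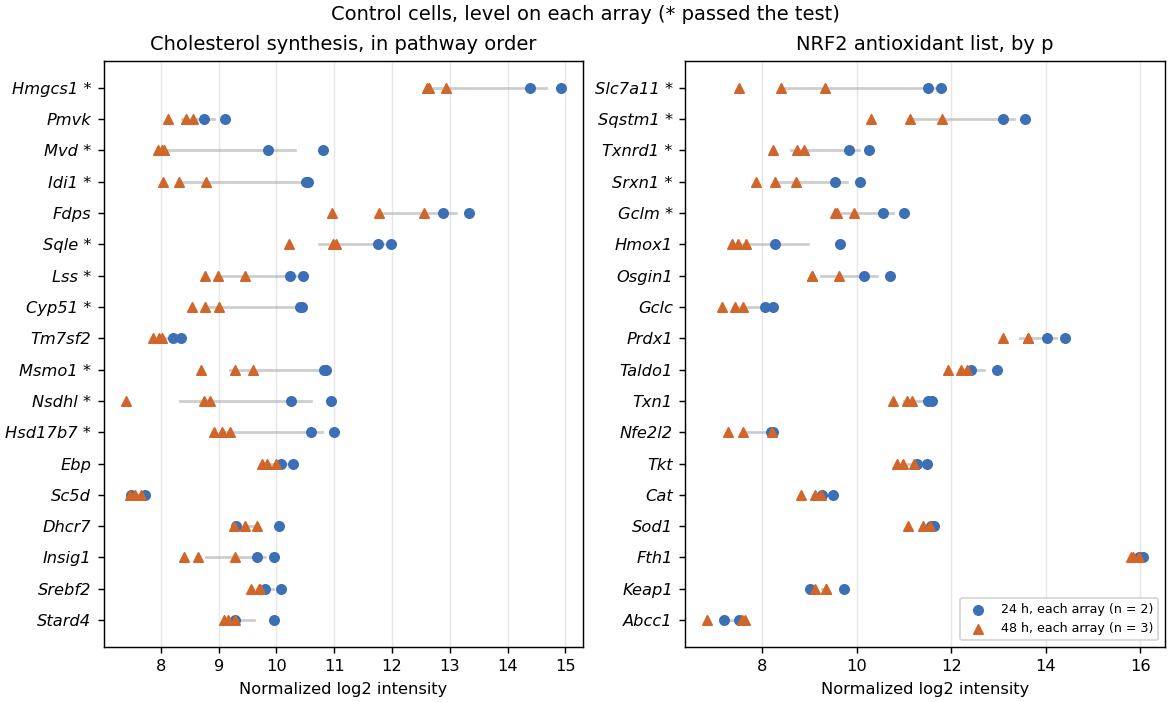
Normalized log2 intensity on each array for the 18 measured cholesterol genes (left) and the 18 measured NRF2 genes by p (right). The cholesterol enzymes are in pathway order, with Insig1, Srebf2 and Stard4 placed after them. Blue circles are the 2 arrays at 24 h, orange triangles the 3 at 48 h, and lines join the means. Stars mark the 9 and 5 genes that passed, and every group mean is lower at 48 h.

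Among enzymes that use glutathione or clear peroxides, 3 were in the 12 largest decreases. Gsta3, a glutathione transferase, read 10.79 and 10.97 at 24 h and 8.3, 7.86 and 8.1 at 48 h (change -2.79 ± 0.30, limma adjusted p = 0.000232). Gstp1, another transferase, read 13.22 and 12.77 at 24 h and 11.05, 10.22 and 10.15 at 48 h (change -2.53 ± 0.34, adjusted p = 0.00214), and all 3 of its probes were lower. Gpx2, an epithelial glutathione peroxidase, read 15.46 and 15.01 at 24 h and 12.82, 12.94 and 13.57 at 48 h (change -2.12 ± 0.39, adjusted p = 0.0122). All 3 were lower on every 48 h array. Of 18 transferases measured Gsta3 and Gstp1 passed, both lower, against 0.421% of all genes called lower. Among the 18, 7 were positive and 11 negative, and the median was -0.12, or 0.04 relative to all probes under median scaling. Gstm1 came next (-1.08, adjusted p = 0.0622). The selenoprotein list does not hold Gpx2, which is also a selenoprotein. Among the 14 measured genes of that list, Selenoh rose and Txnrd1 fell, against 0.631% of all genes called higher and 0.421% called lower. Of the 14, 7 were positive and 7 negative. Gpx2 was lost without 24 h sample 2 (0.14) or 3 (0.0818) or 48 h sample 5 (0.0617), while Gsta3 and the Gstp1 probe quoted passed in all 16 alternatives. A second called Gstp1 probe (-1.32, limma adjusted p = 0.0122) lost its call in 4 of the 16. These were median scaling, only the groups compared, and leaving out 24 h sample 2 or 3.

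The remaining 3 of the 12 largest decreases were Actb, Rnu6 and Zfand2a. The 1 kept probe annotated as Rnu6, the U6 spliceosomal RNA, read 13.99 and 14.1 at 24 h and 11.28, 11.85 and 11.63 at 48 h (change -2.46 ± 0.34, limma adjusted p = 0.00232). Whether its signal came from U6 itself was not tested. Zfand2a, an arsenite-inducible proteasome-associated protein, read 12.81 on both 24 h arrays and 10.95, 10.94 and 10.62 at 48 h (change -1.97 ± 0.29, adjusted p = 0.00265). Both were well apart between the times. The Actb call (beta-actin, -2.91 ± 0.53, adjusted p = 0.0122) came from 1 of 5 probes, read 13.19 and 12.56 at 24 h and 10.71, 10.63 and 8.57 at 48 h. The other 4 Actb probes gave -0.75, 1.00, 1.67 and 1.67, none of which passed, so the probes of this gene disagree in sign. Zfand2a was lost without 24 h sample 3 (0.051), and Actb without 24 h sample 2 (0.14) or 3 (0.0818). Among the sterol and NRF2 genes of the 12 largest decreases, Slc7a11 was lost without 24 h sample 3 (0.0544), Nsdhl (0.133) without sample 2, Idi1 without sample 2 (0.0698) or 3 (0.0762), and Hmgcs1 without sample 2 (0.173) or 3 (0.0818) or 48 h sample 5 (0.0779).

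The ATF4, immediate early and interferon lists held 1 or 2 calls each, all lower, against 0.421% of all genes called lower. Other stress and signalling lists, such as those of p53, NF-kB and ER chaperones, had none. In the ATF4 and amino acid list, 25 genes were measured and 2 fell, Slc7a11 and Ppp1r15a, with 15 positive, 10 negative and a median of 0.16. Ppp1r15a (GADD34), which recruits the phosphatase of eIF2 alpha, read 9.8 and 9.69 at 24 h and 7.78, 7.74 and 8.16 at 48 h (change -1.86 ± 0.34, limma adjusted p = 0.0122). It was lower on all 48 h arrays, whereas Psat1, of serine synthesis, had 10.72 and 11.33 at 24 h and 11.7, 12.4 and 12.44 at 48 h (change 1.15, adjusted p = 0.0913). Klf6, an immediate early transcription factor, was the 1 call of 16 measured AP-1 and immediate early genes (11.73 and 12.52 at 24 h, 10.51, 10.51 and 10.68 at 48 h, change -1.56 ± 0.35, adjusted p = 0.0432), and Egr1 came next (-1.30, adjusted p = 0.0839). Ddx58 (RIG-I, a sensor of viral RNA) was the 1 call of 30 interferon-stimulated genes, at 10.06 and 9.23 at 24 h and 8.44, 8.35 and 7.67 at 48 h (change -1.49 ± 0.28, adjusted p = 0.013), with 23 of 30 negative and a median of -0.45. Ppp1r15a (0.11), Klf6 (0.0804) and Ddx58 (0.199) were lost without 24 h sample 2, and without 24 h sample 3 or 48 h sample 5, Ppp1r15a (0.108 and 0.0615) and Klf6 (0.322 and 0.134) were. Klf6 was also lost without 48 h sample 4 (0.0717) or 6 (0.0824).

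Lysosome and clock genes are the last lists with a call described here. Ctsb, the protease cathepsin B, read 14.58 and 14.68 at 24 h and 13.79, 13.6 and 13.41 at 48 h (change -1.03 ± 0.19, limma adjusted p = 0.0133), 1 of 21 measured lysosome genes, of which 16 were negative with a median of -0.33, against 0.421% of all genes called lower. Under median scaling the Ctsb change was -0.12 (adjusted p = 0.812) and the median of the list 0.17, with all probes shifted by 0.319. Atp6v0a1, a subunit of the proton pump that acidifies lysosomes and outside the list's calls, fell by 1.48 (SE 0.22, adjusted p = 0.00265). The Ctsb call was lost without any 1 array other than 48 h sample 4 (0.0551 to 0.138) and that of Atp6v0a1 without 24 h sample 3 (0.0818). Dbp was the only call among 15 clock genes, against 0.631% of all genes called higher, with 10 positive and a median of 0.14. Per2, the clock repressor, had 6.94 and 7.07 at 24 h and 8.7, 8.3 and 8 at 48 h, a change of 1.33 that did not pass (adjusted p = 0.268). Both 24 h values are below the filter value of 7.1, so Per2 passed the filter through its higher groups.

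Several other lists had no call, and the member named first for each is the one with the smallest p. Hypoxia-inducible genes had 17 measured, 16 of them positive, with a median of 0.49. Hmox1, with the smallest p, was the 1 negative member (-1.45, limma adjusted p = 0.0839). Pdk1 (0.87, adjusted p = 0.219) and Ddit4 (0.69, adjusted p = 0.302) came next. Glycolysis had 16 measured, 10 positive, with a median of 0.26 (-0.01 in the authors' value table), with Ldha, the lactate dehydrogenase subunit (0.74, adjusted p = 0.221). Of 18 p53 targets 15 were negative, with a median of -0.31, with the death receptor Fas (-0.91, adjusted p = 0.0595). Of 21 NF-kB and inflammatory genes 15 were negative, with a median of -0.51, with the chemokine Cxcl2 (-2.02, adjusted p = 0.128). Of 20 ER chaperones 16 were negative, with a median of -0.48, with Hspa5 (BiP, -0.97, adjusted p = 0.139). Histones had 11 measured, 10 positive, with a median of 0.22, with the linker histone H1f10 (1.05, adjusted p = 0.0633). None of these values passed the test, and a miss does not show that the genes were level. Under median scaling the medians of the p53 targets and the ER chaperones were 0.08 and 0.15, which is -0.24 and -0.16 relative to the shift of 0.319.

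**Figure D4:**
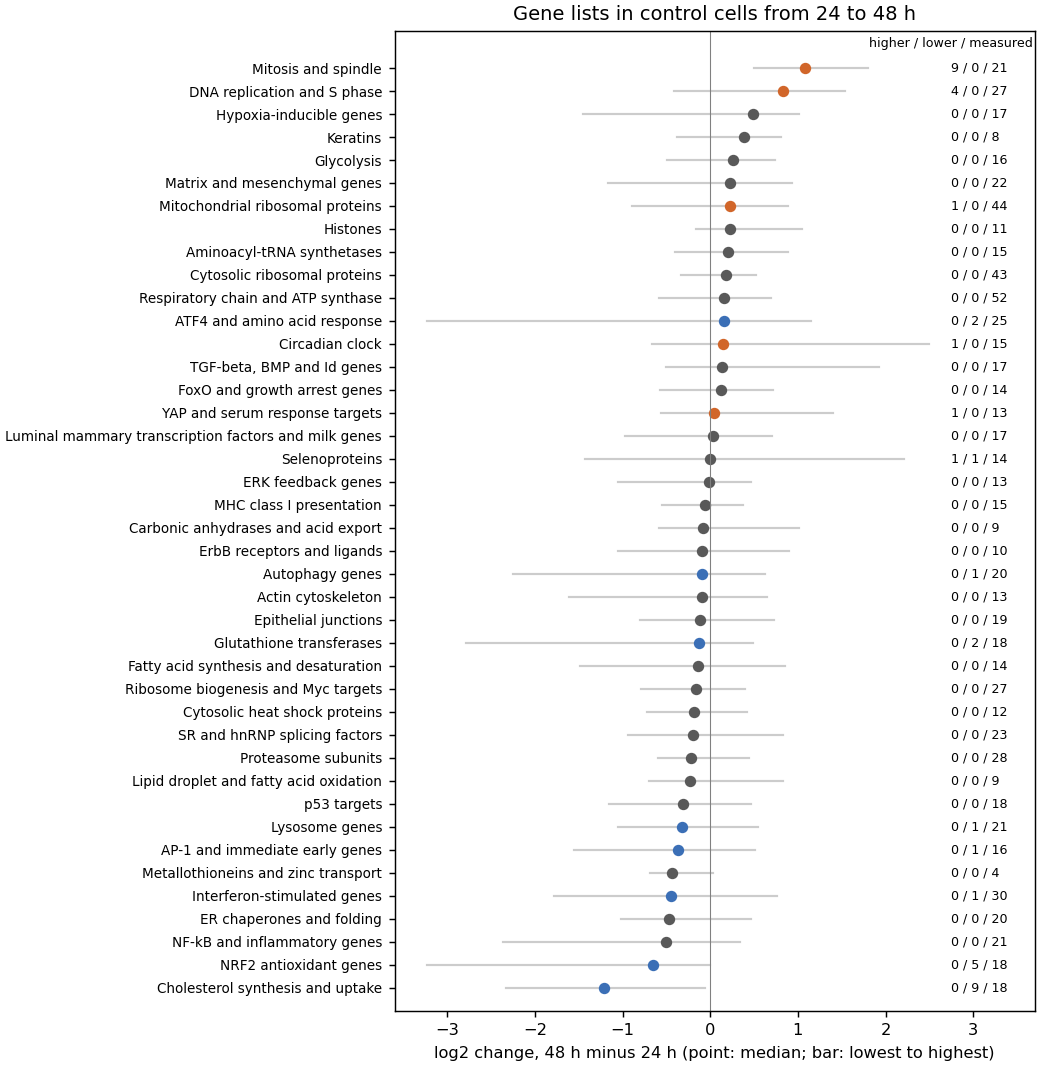
Median log2 change from 24 to 48 h in control cells (points) for 41 gene lists, with grey bars from the lowest to the highest measured member. The figures at the right give members that passed higher, that passed lower and that were measured. Orange and blue points mark lists with more calls higher or lower and dark points those with none or with equal calls. Mitosis stands at the top with 9 of 21 and cholesterol synthesis at the bottom with 9 of 18.

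A time change in the other arm that shares no array with this one, from 24 to 72 h under anti-miR-135b on the second chip, was set beside these values. It differs in inhibitor, in interval and in chip, so a difference between the changes cannot be assigned to any of these. Over that interval 1024 of 12848 probes passed (7.97%), 540 higher (4.2%) and 484 lower (3.77%). Of the 56 probes that fell in control cells, 42 also fell there and 51 were negative, with a median log2 change of -1.35 against -1.48 in control cells. Of the 67 that rose, 16 also rose there and 50 were positive, with a median of 0.41 against 1.19. No probe passed in opposite directions.

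By list, the cholesterol genes had a median change of -1.22 under anti-miR-135b with 9 of 18 lower, and the NRF2 genes -0.75 with 8 of 18 lower, against 3.82% of all genes called lower. Gsta3 changed by -2.70 there, Hmgcs1 by -2.18, Slc7a11 by -4.99 and Selenoh by 2.12, all past the threshold (limma adjusted p of 0.000121, 0.00284, 3.84e-05 and 0.000121). The mitotic genes had a median of 0.32 with 2 of 21 higher, and the S phase genes -0.10 with 1 of 27 higher, against 4.55% of all genes. Kif15 changed by -0.15 (adjusted p = 0.786) and Rrm2 by -0.25 (adjusted p = 0.57) there. Levels of Kif15 averaged 7.73 and of Rrm2 8.79 in the 72 h control samples of the second chip, where chip and time cannot be told apart.

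**Figure D5:**
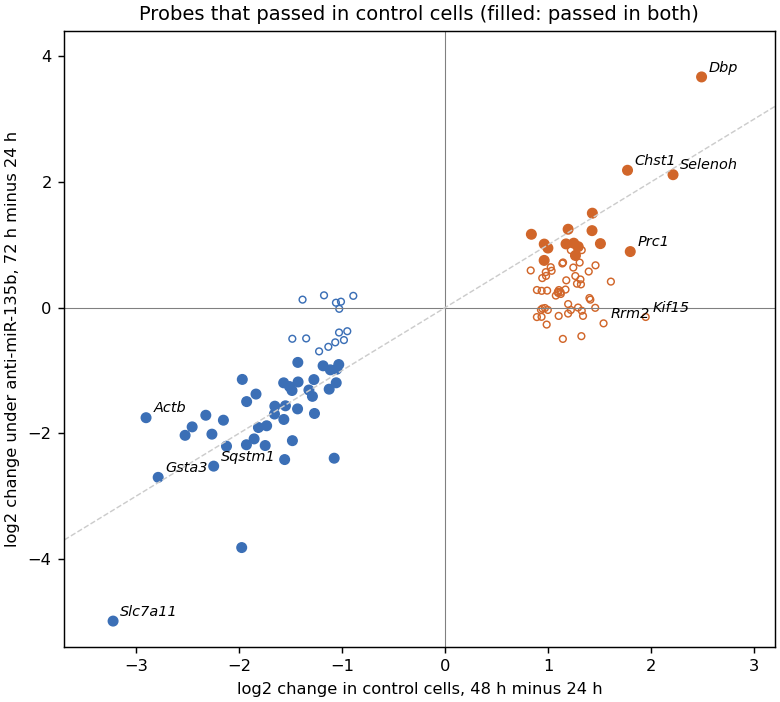
Log2 change in control cells from 24 to 48 h (horizontal) against the log2 change under anti-miR-135b from 24 to 72 h (vertical) for the 123 probes that passed in control cells. Filled points passed in both changes, open points in control cells only, and the dashed line marks equal changes. Most blue points (lower) lie along the line, and most orange points (higher) are open and lie below it. The probes were chosen on their horizontal values, so distance from the line cannot be read as a difference between the arms.

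The difference between both changes was tested in the same fit. It passed for 1 of 12848 probes (0.00778%), Chac1, and 1182 had an unadjusted p under 0.05. Chac1, which degrades glutathione and is induced by ATF4, read 11.17 and 10.49 at 24 h and 11.09, 11.17 and 10.7 at 48 h in control cells (change 0.16 ± 0.39), with groups that overlap. Under anti-miR-135b it read 12.4 and 12.63 at 24 h and 9.23, 8.97 and 8.63 at 72 h (change -3.57 ± 0.39), a difference of 3.73 (95% interval 2.56 to 4.90, limma adjusted p = 0.0365). The next genes toward a higher change in control cells were Gars, the glycyl-tRNA synthetase (difference 2.08, adjusted p = 0.07), Kif15 (2.10, adjusted p = 0.07) and Rrm2 (1.79, adjusted p = 0.103). In the opposite direction were Csrp1 (-1.66, adjusted p = 0.121), Gstt1 (-1.44), Mgll (-1.75) and Ascc1 (-1.42), the last 3 at an adjusted p of 0.237. None of these 7 passed in this fit. With array weights all 7 did (adjusted p of 0.00441 to 0.0318), among 130 probes in all, as did Kif15 without 48 h control sample 4 (0.037) and both Gars and Csrp1 without 24 h control sample 2 (0.0392). The Chac1 call was lost without any 1 anti-miR-135b array, without 24 h control sample 3 and without 48 h control sample 5 (adjusted p of 0.0559 to 0.357).

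Mid1 and Mtch2 are reported in the study's published work as genes that miR-135b suppresses. Mid1, a microtubule-bound ubiquitin ligase, read 8.25 and 8.37 at 24 h and 7.08, 6.97 and 6.72 at 48 h in control cells, so it fell without the inhibitor by 1.39 on the log2 scale (SE 0.28, limma adjusted p = 0.0231). Its 48 h mean was below the filter value, and its change under anti-miR-135b was 0.13 (adjusted p = 0.843). The difference between both changes was -1.51 (adjusted p = 0.237). The Mid1 call was lost without any 1 array other than 48 h sample 4 (0.0799 to 0.186). Mtch2, a mitochondrial outer membrane protein, had 3 probes with changes of -0.42, -0.73 and 0.06, none of which passed (adjusted p of 0.599, 0.414 and 0.959).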

How the data were processed

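Total RNA (mirVana kit) was labelled as biotinylated cRNA and hybridized to Illumina mouse bead arrays, per the labels. The deposited table of non-normalized intensity holds 25697 probes on 16 arrays and was made with GenomeStudio, per the submitters' processing notes of unstated version. The deposited value table holds log2 values whose normalization no label or header names. Its column medians were 8.24 to 8.261, each column ranked probes most like its own array, and it served as an alternative.

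From the intensities, background was corrected by normexp (saddle, offset 50) and arrays were quantile normalized in limma 3.58.1 (R 4.3.3). Probes with a mean above the median of all probes (log2 7.1) were kept, 12848 in all, for 9032 named genes. Platform annotation gave 1 symbol for 23978 probes and none for 1719. No detection p-values were used, and the number of arrays limits the precision. One model held 6 group means (10 residual and 7.7 prior degrees of freedom), with two-sided p-values adjusted by Benjamini-Hochberg over all probes kept, threshold 0.05. No label says that replicates were separate cultures, so p-values measure the spread between these samples.

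The members, the 45 gene lists and the tests were chosen with earlier results of these data known. Lists were described by the brightest kept probe of each gene, with no set test. Named genes were the 12 largest changes per direction among probes that passed, had arrays that do not overlap and bear 1 symbol of no predicted gene. Also named were the 4 smallest p per direction for the difference between both time changes, up to 5 members of a list by smallest p, and Mid1 and Mtch2. Others were named outside these rules, with their values seen, which is said beside some of them only. Among those without such a remark are Cdk1, Pcna, Srebf2, Fdps, Nfe2l2, Aacs and Atp6v0a1. Alternatives changed background, scaling, filter, arrays, weights, spread and probe choice, and left out each array. The test of the change from 24 to 48 h in control cells was tried on simulated data, with normal noise drawn independently for each probe. It recovered 4.8% of 1.5-fold, 46.4% of 2-fold, 93.6% of 3-fold and 98.8% of 4-fold changes, and 5% of its calls were false. Probes of these arrays are not independent, so the shares may differ here.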

Additional observations from a re-analysis of the deposited data

Results flagged for a closer look

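Chac1 differed between the time change in control cells and that under anti-miR-135b by 3.73 on the log2 scale (SE 0.55, limma adjusted p = 0.0365), the 1 probe of 12848 (0.00778%) for which the difference passed. Its mean was 10.83 ± 0.48 (SD, n = 2) at 24 h and 10.99 ± 0.25 (n = 3) at 48 h in control cells, against 12.51 ± 0.16 (n = 2) at 24 h and 8.94 ± 0.30 (n = 3) at 72 h under anti-miR-135b. Control samples at 72 h, on the second chip, averaged 9.31 ± 0.95 (n = 3). Inhibitor, interval and chip differ between the changes and cannot be told apart.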

How the results depend on the processing

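All calls in control cells that an alternative could test kept their direction in it. The 123 calls became 1267 under median scaling, 10 with only the groups compared, 37 with chip 1 alone, 357 with array weights and 17 to 123 without 1 array. The authors' values gave 44.1% of calls higher, the main fit 54.5% and median scaling 98.1%. For the difference between both time changes, the 1 call became 5 without background correction, 0 with an offset of 16 or the stricter filter, 3 under median scaling, 7 in the authors' values, 130 with array weights and 0 to 5 without 1 array. Where it was 0, unadjusted p under 0.05 held for 743 to 1191 probes.

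Of the lists, mitosis had 17 calls under median scaling, 0 with only the groups compared, 3 with chip 1 alone and 1 to 7 without 1 array. S phase had 19, 0, 2 and 0 to 4, and 2 with no filter and 10 with array weights. Cholesterol synthesis had 4 under median scaling, 2 with only the groups compared and 2 to 7 without 1 array. NRF2 had 3, 0, 2 with chip 1 alone, 8 with array weights and 1 to 5 without 1 array. Of all 12848 probes, 1243 were called higher and 24 lower under median scaling, and 202 and 155 with array weights. The counts were 3 and 7 with only the groups compared, and 13 and 24 with chip 1 alone. Without 1 array they were 6 to 64 higher and 11 to 59 lower. With no filter, 41 of 25697 probes were higher and 42 lower. Turned signs were 1 probe of Mtch2 with array weights (-0.07) and without 48 h sample 6 (-0.03) or 24 h sample 2 (-0.12; its values without 1 array ran from -0.12 to 0.24), and under median scaling another Mtch2 probe (0.3), Selenos (0.05), Csnk1e (0.04) and Dnajb9 (0.15), none of them past the threshold. Of 2339 values of named probes under an alternative, 669 lost their call, 50 gained one and 7 turned sign. The cause of these moves was not tested, beyond fewer samples where arrays were left out.

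The groups compared share no replicate number in the labels, so no pairing of samples could be checked. A replicate block by the place of the label number, an assumed pairing chosen after seeing the data, gave 290 calls, 42 for the difference and 9 for S phase. The number of arrays, 2 against 3, limits every value.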
